A study of Homo sapiens with 24 samples.

Results

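RNA that streptavidin beads recovered from cells that had never received the labelling probe was set against total RNA kept before capture, in HEK293T cells, an established human embryonic kidney cell line. The comparison held 8 no-probe captures and 8 inputs, 16 of the 24 libraries of the series, chosen by their labels alone. Each of 4 combinations of fusion protein and treatment gave 2 no-probe captures and 2 inputs. The combinations were TIA1-miniSOG with arsenite, G3BP2-miniSOG with arsenite, miniSOG-DDX6 with arsenite and miniSOG-DDX6 without stress, called basal here. All cells, inputs and no-probe captures included, stably expressed a fusion of miniSOG, a small flavoprotein that makes singlet oxygen under blue light, and all were lit for 15 min at 24 mW/cm2. Arsenite, an oxidative stressor, was given at 0.5 mM for 1 hr. The inputs came from cells that had 10 mM propargylamine, an amine probe with an alkyne handle, and the no-probe cells had 0 mM. A difference between a no-probe capture and an input therefore holds both the bead step and the lack of probe, and these cannot be told apart here. The labels do not say whether the lines were clones, nor whether replicates came from separate cultures, so that the p-values measure the spread between these libraries, which may be technical.

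TIA1 and G3BP2 bind RNA and gather in stress granules, while the helicase DDX6 is a core component of processing bodies. In photocatalytic proximity labelling, light-activated miniSOG oxidises nearby guanine bases, the amine probe joins the oxidised bases, and click chemistry adds biotin to the alkyne. RNA recovered without probe has no alkyne for the biotin reagent, so it is the usual measure of what binds beads, tubes or biotin unspecifically.

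The RNAs on which the comparison turns fall into mRNAs that differ in base composition and into small nuclear RNAs. The 120 bases from the middle of the coding sequence of a gene that was higher without probe, CTXN1, and of a gene that was lower, CENPE, are given below with G and C in capitals. They lie in exons of GRCh38 at chr19:7925356-7925475 (minus strand, coding bases 64 to 183) and chr4:103147380-103147499 (minus strand, coding bases 3991 to 4110), and are read from the GENCODE release 29 transcripts. G and C made up 69.2% of the CTXN1 stretch and 35.0% of the CENPE stretch.
CTXN1: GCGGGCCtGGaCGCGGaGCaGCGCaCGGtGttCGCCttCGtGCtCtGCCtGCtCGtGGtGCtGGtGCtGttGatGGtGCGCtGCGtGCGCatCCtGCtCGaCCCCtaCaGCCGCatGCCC
CENPE: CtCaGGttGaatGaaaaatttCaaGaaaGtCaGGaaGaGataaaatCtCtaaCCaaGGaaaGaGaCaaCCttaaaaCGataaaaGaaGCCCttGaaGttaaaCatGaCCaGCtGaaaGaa

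Some copies of U1 RNA, which recognises 5′ splice sites, were higher without probe, and 2 genes of U5 RNA, which aligns exons in the spliceosome, were lower. The DNA sequences of a U1 variant and a U1 copy, from the same transcripts, are shown because near-identical copies limit how reads can be assigned. RNVU1-7 (chr1:148038753-148038916, minus strand) differs from RNU1-1 by the substitution T150C, counted from the 5′ end and capitalised, while RNU1-27P (chr14:34546714-34546877, plus strand) matches RNU1-1, RNU1-4 and RNU1-28P at all 164 bases.
RNVU1-7: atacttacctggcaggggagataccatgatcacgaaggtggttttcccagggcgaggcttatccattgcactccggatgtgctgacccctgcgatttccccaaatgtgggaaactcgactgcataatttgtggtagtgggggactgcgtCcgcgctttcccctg
RNU1-27P: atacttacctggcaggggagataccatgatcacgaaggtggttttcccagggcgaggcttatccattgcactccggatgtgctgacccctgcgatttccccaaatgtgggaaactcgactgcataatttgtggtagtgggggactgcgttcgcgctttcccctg

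The no-probe captures held 1129510 to 3472565 counts and the inputs 2511043 to 3825961. The bait genes checked the labels: TIA1, G3BP2 and DDX6 were each highest in the libraries of their own line, and none of the 3 passed the test between no-probe capture and input. The 7 HEK293T identity genes summed to 197 to 288 CPM (counts divided by the library's total and scaled up to a common size) in no-probe captures and 212 to 282 CPM in inputs. Across 9165 genes with a mean of at least 10 CPM, the correlation of log2 CPM between the replicates of a combination was 0.918 to 0.970 in no-probe captures and 0.958 to 0.982 in inputs. The pair with the lowest value was that of the DDX6 arsenite no-probe captures, where the median gene differed by 0.34 on the log2 scale, and replicate 1 of that pair stood apart in several measures given below.

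Without probe, the recovered RNA differed from input in many genes and by small amounts. In a fit across 13402 genes (edgeR's quasi-likelihood test with the combination as a block and Benjamini-Hochberg adjustment), 632 genes, 4.72% of those tested, were higher in no-probe captures at an adjusted p under 0.05, and 397, or 2.96%, were lower. The median size of the change among called genes was 0.39 on the log2 scale, 75.9% of called genes changed by under 0.5, and 40 higher and 8 lower genes changed by more than 1. The sign was the same in all 4 combinations for 605 of the 632 higher and 381 of the 397 lower genes. These genes were called from the same 4 combinations, so this sharing of sign is partly built in and is not a separate test. With no scaling beyond total counts, 477 genes were higher and 94 lower. Leaving out replicate 1 of the DDX6 arsenite no-probe captures gave 768 higher and 821 lower genes, and leaving out the G3BP2 arsenite or the DDX6 basal combination gave 135 and 51 or 99 and 58.

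The change ran with GC content along the whole range of nuclear protein-coding genes. Of 11828 such genes, the GC-richest of 5 equal groups (58.3 to 76.8% of the longest annotated transcript) had a median log2 change of 0.23, with 387 genes higher and 0 lower. The GC-poorest group (30.2 to 40.7%) had a median of -0.16, with 2 genes higher and 206 lower. The groups between them had medians of -0.10, -0.02 and 0.11, in order of rising GC content. The extremes lay on opposite sides of 0 in all 4 combinations, although in DDX6 basal libraries the group next to the GC-poorest was as low (-0.12): the GC-richest group had medians of 0.22 in TIA1 arsenite, 0.27 in G3BP2 arsenite, 0.17 in DDX6 arsenite and 0.27 in DDX6 basal libraries, and the GC-poorest group had -0.20, -0.25, -0.09 and -0.11. Spearman's rho between log2 change and GC content across these genes, which share libraries and are not independent replicates, was 0.61 in the pooled fit and 0.31 to 0.49 within the combinations. It was -0.64 for the share of A, -0.49 for T, 0.57 for G, 0.59 for C and -0.24 for transcript length. With the GC trend of each library removed, a step added after the data were seen, 83 genes were higher and 50 lower, and 117 genes were called with the same sign with and without the step.

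Length followed GC content, but the order by GC content was also present among transcripts of like length. The shortest of 5 equal groups of transcripts by length (312 to 2278 bases) had a median log2 change of 0.08 and a median GC content of 53.5%, and the longest group (6162 bases or more) had -0.10 and 43.97%. Within the shortest group, the 765 GC-richest genes had a median of 0.25 and the 202 GC-poorest -0.13. Within the longest group, the 170 GC-richest genes had a median of 0.17 and the 756 GC-poorest -0.18.

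Counted per library, the GC-richest group took 15.3 to 18.96% (median 17.7%) of nuclear coding counts in no-probe captures and 13.98 to 16.04% (median 15.3%) in inputs. The GC-poorest group took 15.0 to 20.1% (median 16.8%) in no-probe captures and 17.5 to 20.1% (median 19.3%) in inputs. In TIA1 arsenite, G3BP2 arsenite and DDX6 basal libraries both no-probe captures lay above both inputs for the GC-richest group and below both for the GC-poorest. Replicate 1 of the DDX6 arsenite no-probe captures, with 15.3% and 20.1%, lay between its inputs, which had 15.7 and 13.98% for the GC-richest and 18.7 and 20.1% for the GC-poorest group. The labelled captures of the same lines lay on the other side of the inputs, with 8.79 to 12.1% for the GC-richest and 22.9 to 28.3% for the GC-poorest group.

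**Figure D1:**
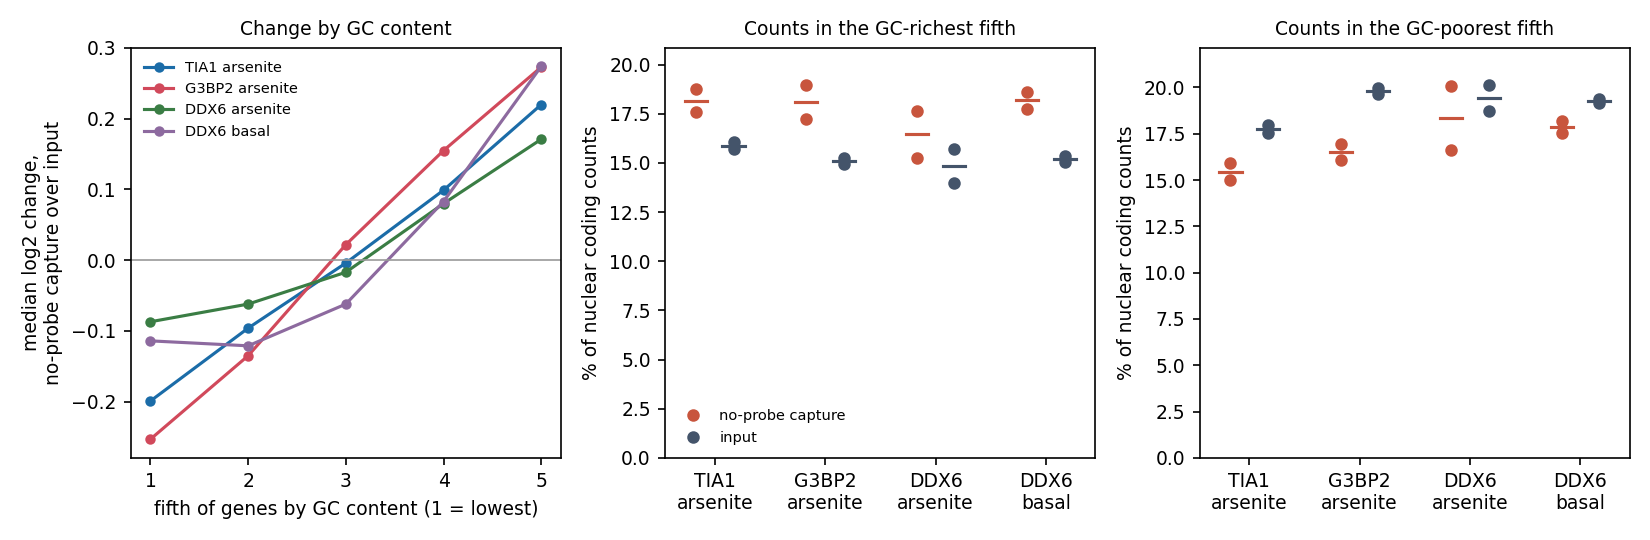
Left, median log2 change of no-probe capture over input for 5 equal groups of nuclear protein-coding genes by GC content, one line per combination. Middle and right, percent of nuclear coding counts in the GC-richest and GC-poorest group in each library (points) with the mean of the pair (bars). No-probe captures reached 18.96% for the GC-richest group, against 16.04% at most in inputs.

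Among coding genes, the 10 largest rises were in genes of 53.7 to 72.8% GC with a mean of 10.2 to 26.7 CPM. These 10, named by rule (adjusted p under 0.05, 1 sign in 4 combinations, mean of at least 10 CPM), rose by 0.76 to 0.89 on the log2 scale. ACBD4, an acyl-CoA binding protein, had 10.0 to 21.2 CPM (median 16.1) in no-probe captures and 3.71 to 12.2 CPM (median 8.91) in inputs, a log2 change of 0.89 ± 0.19 (SE, adjusted p = 0.00367). In each combination both of its no-probe captures exceeded both inputs. CTXN1, which encodes cortexin 1, a small membrane protein of neurons, had 17.0 to 29.2 CPM (median 21.03) in no-probe captures and 10.1 to 18.1 CPM (median 12.5) in inputs, again with no overlap within any combination. Its log2 change was 0.77 ± 0.13 (SE, adjusted p = 0.000502). TMEM134, a transmembrane protein, had 13.3 to 20.96 CPM without probe and 8.74 to 10.4 CPM in inputs, so that the groups did not overlap at all. QPCTL, the Golgi glutaminyl cyclase, had 19.02 to 37.5 CPM without probe and 12.4 to 22.0 CPM in inputs, and its change was 0.12 in TIA1 cells and at least 0.74 in each of the other combinations. MYADM, SERINC2, SPATA2L, OLFM2, PDF, which encodes the mitochondrial peptide deformylase, and ARMC5, an armadillo repeat protein, rose by 0.76 to 0.82. SERINC2, a serine incorporator family member, separated from its inputs in 2 of the 4 combinations only. With the GC trend of each library removed, MYADM, TMEM134 and QPCTL kept their call, whereas ACBD4 (0.67, edgeR adjusted p = 0.0751), CTXN1 (0.40, 0.138), SPATA2L, OLFM2, SERINC2, PDF and ARMC5 did not. In a list of 30 mRNAs of secreted and membrane proteins, 3 were higher, 0 lower and 27 did not pass, with a median of -0.01. Over all tested genes, 4.72% were higher and 2.96% lower.

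The 10 coding genes with the largest fall had 35.3 to 44.6% GC, except S100A11, and included genes of chromosome and chromatin proteins. SMC3, a ring subunit of cohesin, had 80.8 to 112 CPM (median 89.9) in no-probe captures and 124 to 156 CPM (median 137) in inputs. The groups did not overlap, and the log2 change was -0.58 ± 0.08 (SE, adjusted p = 6.89e-05). CENPE, the kinetochore motor that moves chromosomes to the spindle equator, had 20.0 to 70.2 CPM (median 56.6) without probe and 39.3 to 112 CPM (median 83.1) in inputs, with no overlap within any combination and a log2 change of -0.57 ± 0.10 (SE, adjusted p = 0.000563). BRD7, a bromodomain subunit of a SWI/SNF complex, had 26.2 to 61.0 CPM without probe and 53.0 to 73.9 CPM in inputs. S100A11, a calcium-binding protein with a transcript of 594 bases and 54.2% GC, had 8.27 to 20.8 CPM without probe and 18.4 to 28.0 CPM in inputs, a log2 change of -0.69 ± 0.13 (SE, adjusted p = 0.00189). KIAA1551, SMIM15, KIAA2026, ASB7, ZNF721 and TPD52L1 fell by 0.57 to 0.65. With the GC trend removed, S100A11, BRD7, SMC3 (-0.43, edgeR adjusted p = 0.00817) and CENPE (-0.38, 0.0248) kept their call and the other 6 did not. Of 917 genes that met the rule's filters, 13 were pseudogenes or had no symbol in the annotation and were not named.

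**Figure D2:**
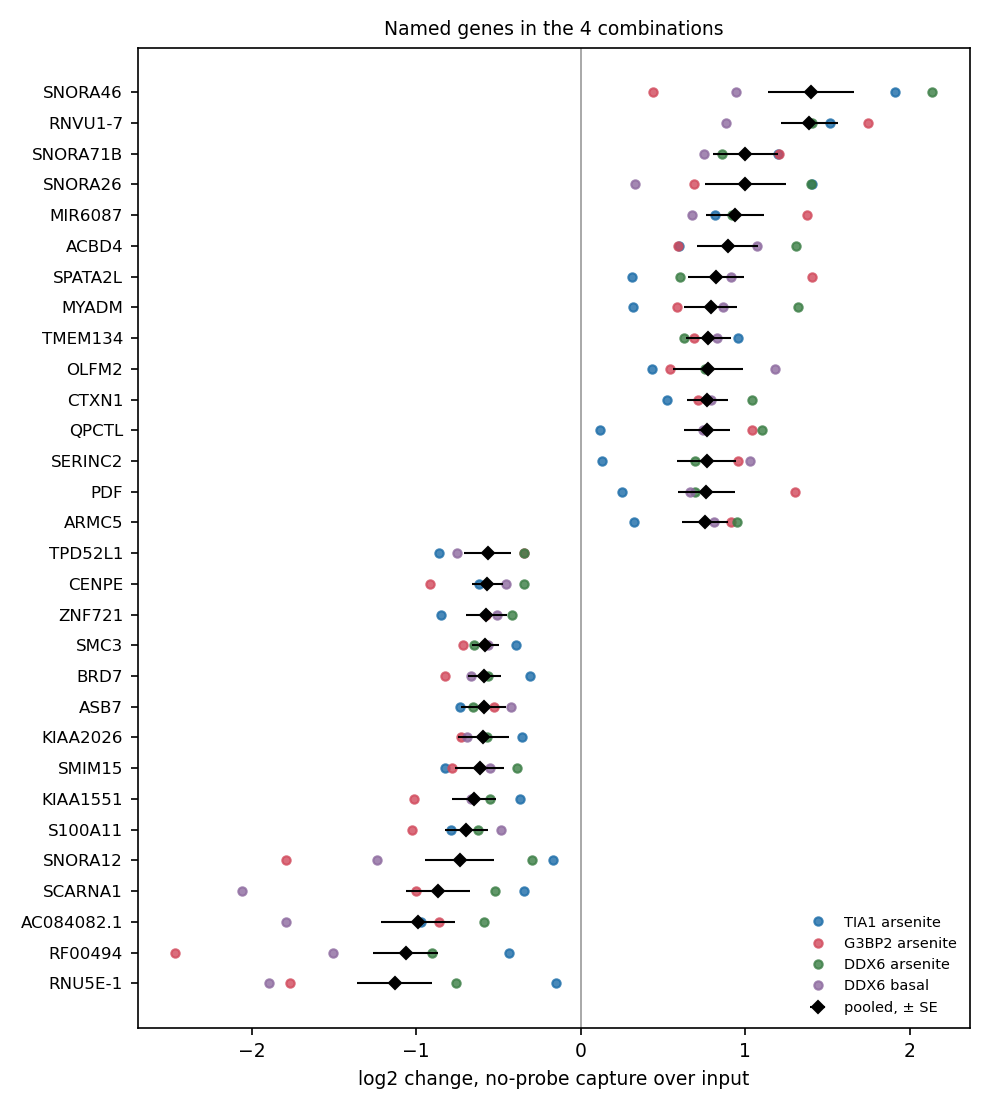
Log2 change of no-probe capture over input for the 30 genes named by rule, with each combination as a coloured point and the pooled fit as a black diamond with its SE. All 4 points of a gene lie on 1 side of zero, as the rule required, and the points of the small RNAs spread most.

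Functional groups of mRNAs are given by their calls and median log2 change, beside 4.72% higher, 2.96% lower and a median of 0.00 over all tested genes. Of 41 mitosis mRNAs, 11 were lower and 1 higher, with a median of -0.17 and a median GC content of 41.4%. The lower ones with the largest change were CENPE (-0.57) and CENPF (-0.47), both kinetochore proteins, and the higher one was BIRC5 (0.29), the survivin gene. Of 54 chromatin regulator mRNAs, 10 were lower and 0 higher, with a median of -0.12, among them BRD2 (-0.53), a reader of acetylated histones whose transcript has 55.0% GC, and SMARCA5 (-0.44), an ISWI ATPase. Of 29 very long mRNAs, 4 were lower and 0 higher, with VPS13C and VPS13A, which encode lipid transfer proteins, at -0.38 and -0.37. Of 375 zinc finger mRNAs, 14 were lower and 7 higher. The 14 lower ones had 34.7 to 47.96% GC, with ZNF613 (-0.99, 42.4%) and ZNF480 (-0.63, 37.5%) at the extreme. Of the 7 higher ones, ZNF579 (0.62), ZNF696 (0.65), ZNF703 (0.35) and ZNF444 (0.58) had 57.8 to 65.9% GC, while ZNF554 (0.67) had 48.8% and ZNF738 (0.58) 36.1%. The other, ZNF682 (38.3% GC), had a median of 0 CPM in both groups and at most 8.23 CPM without probe and 1.15 CPM in inputs, so that it passed the filter on low counts through few no-probe captures. Zinc finger genes beyond the extremes were named after their values were seen.

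Of 18 cytoskeleton mRNAs, 3 were higher and 0 lower, namely TUBA1B (0.39) and TUBA1C (0.42), which encode alpha-tubulins, and CFL1 (0.39), the actin-severing cofilin. Among 75 oxidative phosphorylation mRNAs, CYC1 (0.47), cytochrome c1, was among 3 that were higher, and NDUFA5 (-0.45), a complex I subunit, among 2 that were lower; their GC contents were 64.5% and 35.0%. RPS27 (-0.51) was among 7 lower mRNAs, and RPS23 (0.30) the 1 higher mRNA, of 82 that encode ribosomal proteins. Of 35 translation factor mRNAs, EIF5A (0.38) and EIF6 (0.35) were higher and BTF3, EIF5B and EIF1AX were lower by 0.34 to 0.36. Of 48 histone mRNAs, 0 passed the test at an adjusted p under 0.05 in edgeR.

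Of 30 mRNAs of stress granule proteins, with a median of -0.10, 4 were lower, with PRRC2C at -0.41, HNRNPA1 at -0.31, FMR1 at -0.29 and LARP4 at -0.30, and FXR2 was higher at 0.28. Of 42 mRNAs of P-body proteins, LSM4 was higher at 0.40 and DCP1A (-0.32) and PNRC1 (-0.29) were lower. Of 8 mRNAs of biotin enzymes and biotin transport, whose proteins carry or handle the vitamin that streptavidin binds, SLC5A6, the sodium-dependent vitamin transporter, was higher at 0.34. The other 7, the carboxylases among them, did not pass the test, and the 8 ranged from -0.41 to 0.34.

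Among mRNAs of stress responses, calls went in both directions. Of 32 immediate early mRNAs, JUND (0.52) and MYC (0.34) were higher and ID2 (-0.32) lower, all transcription regulators. Of 22 heat shock mRNAs, HSPD1 (-0.33), a mitochondrial chaperonin, was lower and 0 were higher. Of 18 targets of NRF2, a factor that answers oxidative stress, FTH1 (0.37), ferritin heavy chain, and PGD (0.24) were higher and 0 lower. Of 26 targets of ATF4, a factor of the integrated stress response, SHMT2 (0.42) and PYCR1 (0.36), enzymes of serine and proline metabolism, were higher and 0 lower.

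By class of RNA, the share of mitochondrial rRNA was lower without probe in every combination. It averaged 21.2% ± 3.06 of all counts in no-probe captures and 25.8% ± 0.77 in inputs (SD within replicate pairs, n = 8 each), a difference of -4.68 percentage points. The exact two-sided permutation test within combinations gave p = 0.00154, the smallest that its arrangements allow, and 0.017 after adjustment over 11 classes. Both no-probe captures lay below both inputs in each combination, with 24.9 and 27.1% against 28.5 and 28.2% in TIA1 arsenite, 19.02 and 17.9% against 22.4 and 21.9% in G3BP2 arsenite, 18.6 and 25.3% against 26.9 and 27.1% in DDX6 arsenite, and 15.8 and 20.6% against 24.8 and 26.9% in DDX6 basal libraries. Without either input of the DDX6 arsenite combination the adjusted p was 0.0679. The share of mitochondrial mRNA was 2.60% without probe and 2.59% in inputs, and its difference did not pass the test (exact permutation p = 0.88). In the gene-wise fit the 2 mitochondrial rRNAs did not pass (MT-RNR1 at -0.37 and MT-RNR2 at -0.31). On that scale MT-RNR1 and MT-RNR2 did not fall in TIA1 arsenite libraries (0.003 and 0.09). They were at -0.28 to -0.69 in the other combinations. Of 13 mitochondrial mRNAs, MT-ND4L (-0.48) and MT-CO3 (-0.40) were lower and 0 were higher. Of 8 mitochondrial tRNAs, MT-TC was higher, at 2.125, with 3.27 to 13.8 CPM without probe and 0.86 to 3.17 CPM in inputs. MT-TC could pass the filter on low counts only through the no-probe captures, so its call adds nothing to these values. MT-TP was lower, at -0.41 (edgeR adjusted p = 0.0216), and 6 did not pass.

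The 5S rRNA class was higher on average without probe but did not pass after adjustment. It took 0.59 to 2.71% of counts without probe and 0.40 to 1.07% in inputs, a difference of 0.83 percentage points with an exact permutation p of 0.017 and 0.0934 after adjustment. Replicate 1 of the no-probe captures of DDX6 arsenite and of DDX6 basal cells had 0.65 and 0.59%, within the range of inputs, and without the first or the second the adjusted p was 0.017 or 0.0424. Nearly all of the class was RNA5SP202, an annotated 5S pseudogene on chromosome 6 that may take reads of the many 5S copies, with 4590 to 32880 CPM (median 15880) without probe and 3880 to 10540 CPM (median 6204) in inputs. Its log2 change was 1.22 ± 0.27 (SE, edgeR adjusted p = 0.00513), and 1.02 with the GC trend removed (adjusted p = 0.0534).

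Loci of the 45S rDNA repeat, which yields 18S, 5.8S and 28S rRNA, took 11.6 to 21.6% of counts without probe and 11.4 to 19.2% in inputs. Most of this was FP236383.3, annotated as a long noncoding RNA at chr21:8437629-8438551 (minus strand) opposite the 18S gene of a repeat, and reads of 18S rRNA cannot be told apart from it because the counting is not stated to use strand. The difference of this class was 6.02 percentage points in TIA1 arsenite, -4.82 in G3BP2 arsenite, 1.89 in DDX6 arsenite and 1.68 in DDX6 basal libraries, so that the sign was not shared, and the pooled difference did not pass the test. Nuclear protein-coding genes averaged 53.7% without probe and 51.5% in inputs, with -5.07 points in TIA1 arsenite and 6.68 in G3BP2 arsenite libraries. The classes of snRNA, snoRNA, 7SL and 7SK RNA, other long noncoding RNA and pseudogenes also did not pass, at adjusted p of 0.243 to 0.652.

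**Figure D3:**
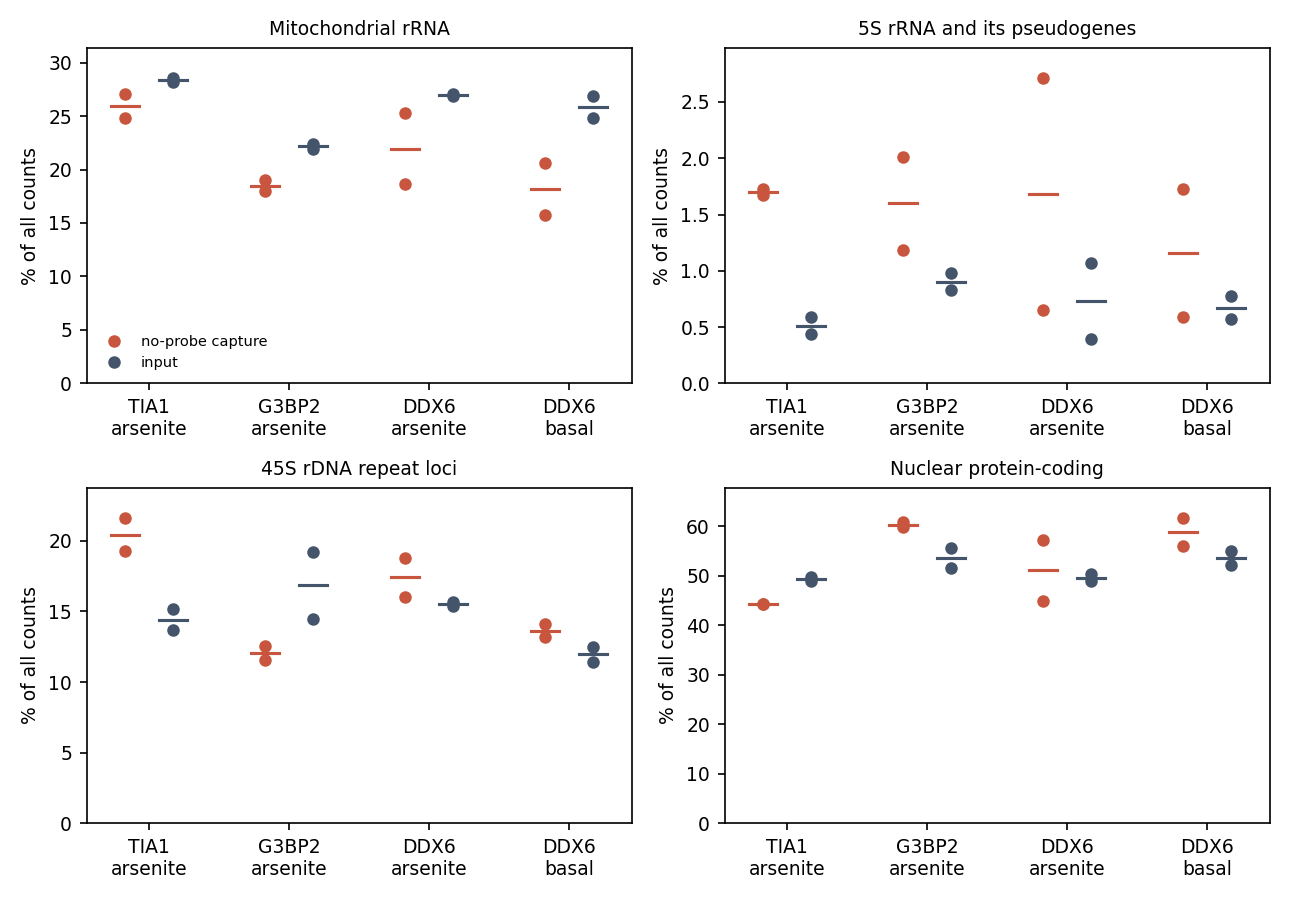
Percent of all counts taken by 4 classes of RNA in each library (points) with the mean of the pair (bars), no-probe captures beside inputs for each combination. Mitochondrial rRNA lies lower without probe in all 4 combinations, and the 45S rDNA loci differ in sign between TIA1 and G3BP2 libraries.

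Within the small nuclear RNAs, the calls were in U1 and U5 genes, of opposite sign. RNVU1-7, a U1 variant, had 58.3 to 240 CPM (median 168) in no-probe captures and 39.7 to 82.0 CPM (median 58.0) in inputs. Its log2 change was 1.39 ± 0.17 (SE, adjusted p = 2.68e-05) and lay between 0.89 and 1.75 in the 4 combinations. RNU1-4 was also higher, at 0.64 (adjusted p = 0.0311), while RNU1-1, with 0.50, missed the threshold (adjusted p = 0.0749). Not all U1 genes rose: RNVU1-18 (-0.682), RNVU1-6 (-0.645), RNU1-85P (-0.603) and RNVU1-15 (0.056) did not pass. These were scarcer, with means of 1.98 to 7.44 CPM. RNU5E-1 had 72.8 to 670 CPM (median 212) without probe and 358 to 723 CPM (median 570) in inputs, a log2 change of -1.13 ± 0.23 (SE, adjusted p = 0.00298). Its change was -0.15 in TIA1 cells and -1.77, -0.76 and -1.89 in G3BP2 arsenite, DDX6 arsenite and DDX6 basal cells. RNU5A-1 was lower as well, at -0.89 (adjusted p = 0.0191), whereas RNU5B-1, RNU5D-1 and RNU5F-1, at -0.60, -0.43 and -0.01, did not pass. The change of RNU5A-1 was 0.04 in TIA1 arsenite, -1.50 in G3BP2 arsenite, -0.58 in DDX6 arsenite and -1.55 in DDX6 basal cells. RNU5B-1, RNU5D-1 and RNU5F-1 were at 0.19, 0.61 and 1.04 in TIA1 arsenite cells. Of all 17 U snRNA genes tested, pseudogene copies aside, 2 were higher and 2 lower.

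RNU1-27P stood far from the other U1 copies. It had 54 and 55 counts in the TIA1 arsenite no-probe captures, 54 and 23 in those of G3BP2 arsenite, 1 and 96 in those of DDX6 arsenite and 17 and 55 in those of DDX6 basal cells. The 8 inputs had 0 to 3 counts each and 8 in all, and the 8 labelled captures had 13 in all. Summed, 355 counts of 18399507 without probe stood against 8 of 25467265 in inputs, a ratio of 61.4. The exception was replicate 1 of the DDX6 arsenite no-probe captures, which lay at the level of the inputs. RNU1-27P had the largest log2 rise of all tested genes, 5.69, and could pass the filter on low counts only through the no-probe captures. The ratio therefore describes these counts and is not a test. RNU1-28P, a copy on the same chromosome with the same 164 bases, had 58 counts without probe and 16 in inputs. It was also called higher in the pooled fit, at 2.18 on the log2 scale. RNU1-28P too could pass the filter only through the no-probe captures, so its call adds nothing to these counts. RNU1-1, with those bases too, had 2076 counts without probe and 1847 in inputs. Since these copies share their sequence, the assignment of reads among them is uncertain.

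Other small RNAs went both ways. Of 70 snoRNAs and scaRNAs tested, 6 were higher and 10 lower, where 4.72% and 2.96% of all tested genes were. SNORA46, a snoRNA of the H/ACA class that guides pseudouridylation, had 4.67 to 28.6 CPM without probe and 2.86 to 8.65 CPM in inputs (log2 change 1.40 ± 0.26, SE, adjusted p = 0.00155), and SNORA71B and SNORA26 rose by 1.00. SNORA22, with 0.44 to 11.2 CPM without probe and 8.35 to 17.5 CPM in inputs, was lower at -1.625 (edgeR adjusted p = 0.000118). SNORA22C was lower at -1.21 (edgeR adjusted p = 0.0157). Both had means under 10 CPM. SCARNA1, a Cajal body RNA, had 4.20 to 28.9 CPM without probe and 20.6 to 45.02 CPM in inputs (log2 change -0.87 ± 0.19, SE, adjusted p = 0.00619), and SNORA12 was lower at -0.74. The median change of the 70 was 0.32 in TIA1 arsenite and -0.53 in DDX6 basal libraries, beside medians of -0.01 and 0.00 over all tested genes. MIR6087, annotated as a microRNA gene of 75.5% GC, was higher at 0.94. RF00494, annotated as a snoRNA but not in the list of 70, was lower at -1.06. AC084082.1, annotated as a long noncoding RNA of 956 bases, was lower at -0.99. With the GC trend removed, SCARNA1, SNORA12 and MIR6087 no longer passed. SNORA22 and SNORA22C were not among the genes checked in this way.

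**Figure D4:**
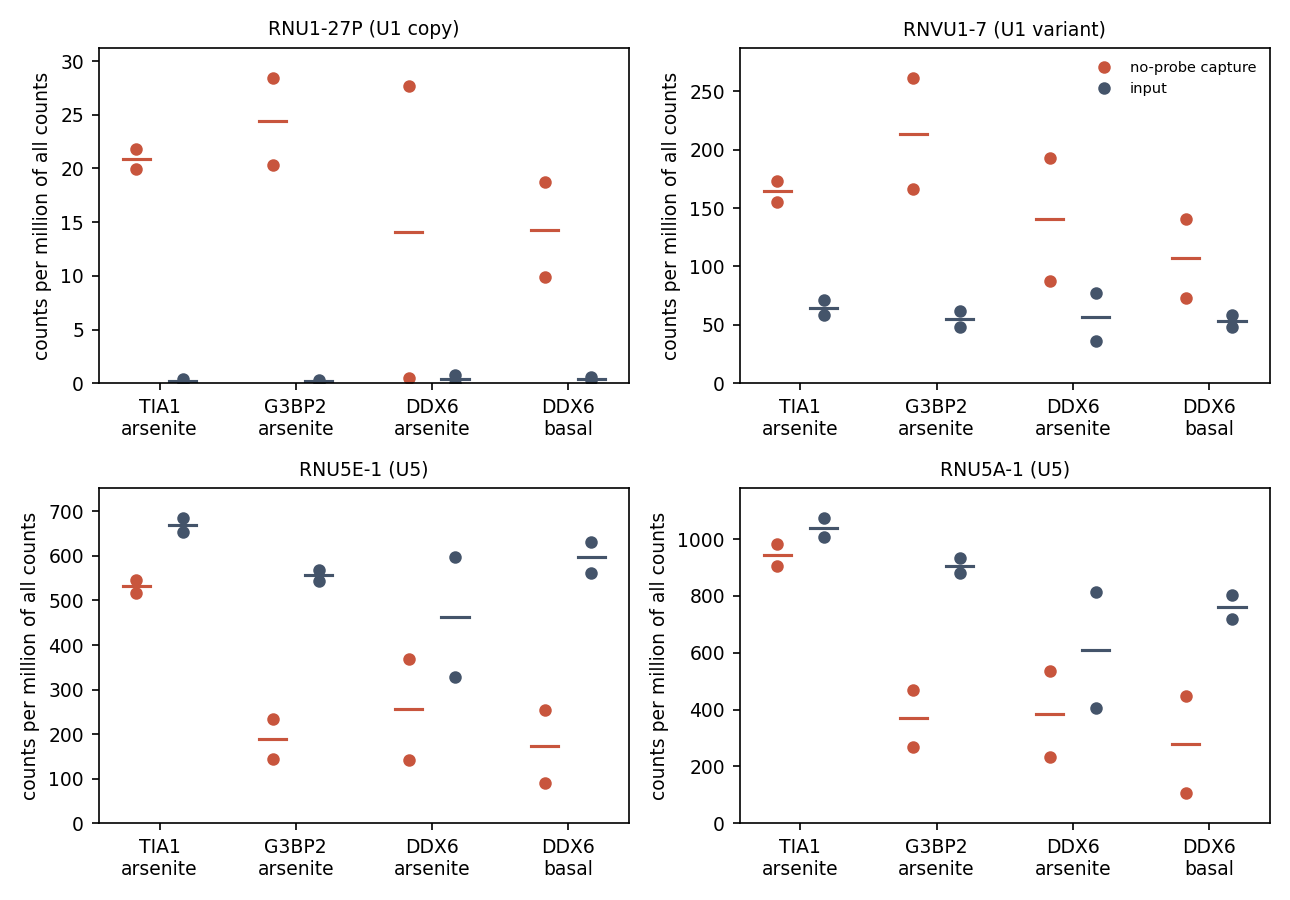
CPM, here scaled by total counts, of 2 U1 genes and 2 U5 genes in each library (points) with the mean of the pair (bars). RNU1-27P has 54 and 55 counts in the TIA1 no-probe captures and 0 to 3 in each input, with 1 no-probe capture of DDX6 arsenite cells at the level of the inputs.

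Within a combination, with 2 libraries a group, few genes passed. G3BP2 arsenite libraries had 5 genes past the threshold, 0.0373% of those tested. MIR3648-2 (log2 change 2.41) and TMEM258 (0.95), which was named after its value was seen and encodes a subunit of the oligosaccharyltransferase, were higher, and RNA5-8SN2 (ENSG00000277739, -3.33) and MT-TP, the mitochondrial proline tRNA (-1.28), were lower. The other was RNU1-27P, higher with 54 and 23 counts against 0 and 1 in the inputs. It could pass the filter on low counts only through the no-probe captures, so its call adds nothing to these counts. DDX6 basal libraries had 1, RNA5-8SN2 (ENSG00000277739, -3.88). TIA1 arsenite and DDX6 arsenite libraries had 0 each in edgeR, with 883 and 809 genes at an unadjusted p under 0.05, and in DESeq2 0 and 1. All groups share 1 estimate of the spread in this fit. Without replicate 1 or 2 of the DDX6 arsenite no-probe captures, the pair that differed most, G3BP2 arsenite libraries had 201 or 188 genes past the threshold, DDX6 basal 49 or 43, DDX6 arsenite 34 or 167 and TIA1 arsenite 14 or 14.

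The test of any difference in background among the 4 combinations called 3 genes, 0.0224% of those tested. MIR3648-2, in the 5′ external spacer of an rDNA repeat, had 84.0 and 74.1 CPM in the G3BP2 arsenite no-probe captures against 10.7 and 19.8 in the inputs, but 5.74 and 16.5 CPM against 35.8 and 39.4 in DDX6 arsenite cells (edgeR adjusted p = 0.00469). The 5.8S gene copy RNA5-8SN2 (ENSG00000277739) at chr21:8256781-8256933 had 440 and 275 CPM against 202 and 266 in TIA1 arsenite cells, and 18.2 and 31.3 CPM against 345 and 403 in DDX6 basal cells (adjusted p = 0.00469). A far more abundant copy with the same symbol (ENSG00000275215) changed by -0.09, and reads cannot be assigned with certainty among such copies. CUTA, whose bacterial counterpart is a divalent cation tolerance gene, had 9.64 and 11.98 CPM against 0.58 and 1.80 in G3BP2 arsenite cells, and 2.80 and 0.91 CPM against 9.05 and 8.58 in DDX6 basal cells (adjusted p = 0.0459). The next by p were FP671120.1, FP671120.3 and ENSG00000279010, none past the threshold.

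For DDX6 cells the background with arsenite could be set against that without. The change without probe in arsenite-treated cells minus that in basal cells passed in 0 of 13402 genes in edgeR and in 0 in DESeq2, with 262 genes at an unadjusted p under 0.05, or 1.95%. The median size of this difference was 0.22 on the log2 scale. This does not show that the backgrounds were alike, since each group had 2 libraries.

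Olfactory receptor genes, best known from the sensory neurons of the nose, had low counts in all libraries. The 376 in the table summed to 1.21 to 43.4 CPM (median 8.19) in no-probe captures and 2.47 to 5.89 CPM (median 3.68) in inputs. In G3BP2 arsenite cells the no-probe captures had 13.2 and 43.4 CPM (25 and 49 counts) against 3.37 and 2.47 CPM in the inputs. In DDX6 arsenite cells they had 18.4 and 6.33 CPM against 5.50 and 2.88 CPM, in DDX6 basal cells 9.93 and 6.46 CPM against 3.27 and 5.89 CPM, and in TIA1 arsenite cells 1.21 and 2.90 CPM against 4.47 and 3.98 CPM. Every no-probe capture lay above its inputs in 3 combinations and below them in TIA1 cells. The exact two-sided permutation test within combinations, added after the values were seen, gave p = 0.0401 for the pooled difference. The library with the highest sum also had the fewest counts, 1129510. In all, 90 of these genes had a count without probe and 35 in inputs. Of 15 marker genes of other cell types, summed at 10.5 to 35.4 CPM without probe and 10.98 to 19.9 CPM in inputs, SYT1 had 108 counts without probe and 231 in inputs, CDH1 65 and 82, GFAP 56 and 53, and ACTA1 26 and 31. The other 11 had 11 counts or fewer in either group, and CD3E, PRSS1, HBB and INS had 0 in both.

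With every library thinned to 1129510 counts, 16658 to 23053 genes were detected without probe and 17147 to 19241 in inputs. The G3BP2 arsenite no-probe captures had 19161 and 23053 genes, against 18181 and 17789 in the inputs. The DDX6 basal no-probe captures, with 20264 and 19570, also exceeded both their inputs, with 19241 and 19206. Those of TIA1 arsenite cells, with 16870 and 16658, lay below theirs, with 17817 and 17359. In the DDX6 arsenite pair, replicate 1 had 19783 genes and replicate 2 had 17431, against 18133 and 17147 in the inputs. The part that depth has in the olfactory receptor sums was not tested.

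**Figure D5:**
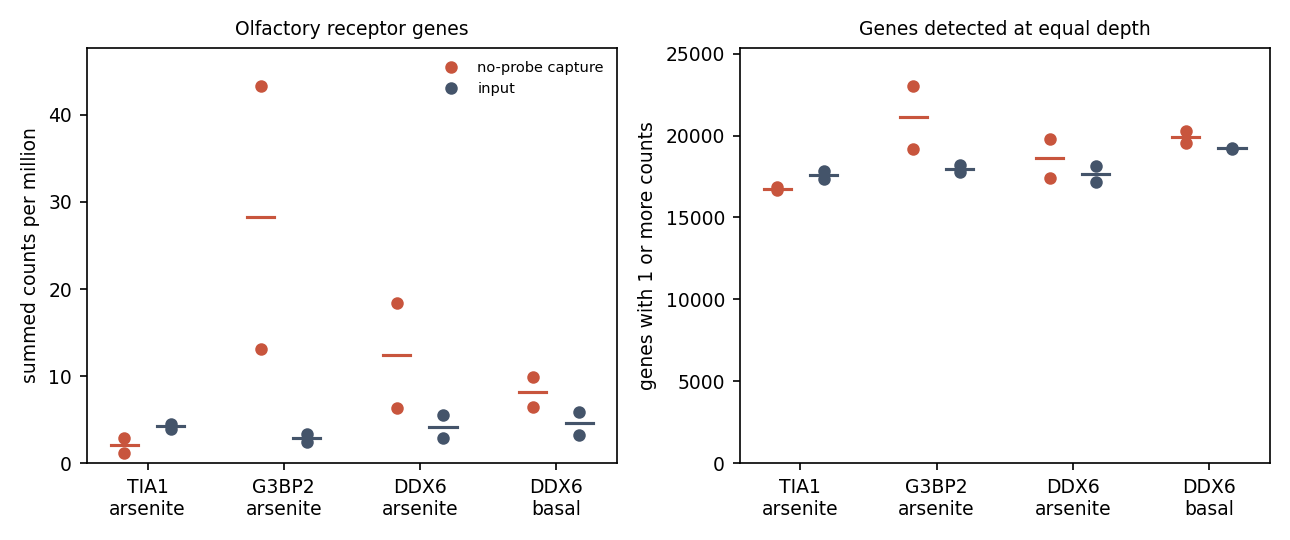
Left, summed CPM of olfactory receptor genes in each library, and right, genes with at least 1 count after thinning every library to 1129510 counts, with the mean of each pair as a bar. G3BP2 arsenite no-probe captures reached 43.4 CPM and 23053 genes, while those of TIA1 arsenite cells lay below their inputs in both plots.

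The no-probe values of the named genes were set beside those of the labelled captures, which come from a fit of all 24 libraries and share the inputs. Of the 10 coding genes that were lower without probe, SMC3 was at 1.07 with probe over input, and CENPE, BRD7, ASB7, KIAA1551 and SMIM15 were at 0.39 to 0.72. ZNF721 (-0.03) and KIAA2026 (-0.20) did not pass the test with probe, and S100A11 (-1.71) and TPD52L1 (-0.66) were lower with probe too. Of the 10 that were higher without probe, SERINC2 was at -1.31 with probe, CTXN1 at -0.90, and TMEM134, ACBD4, OLFM2 and MYADM at -0.80 to -0.41. QPCTL (-0.17), PDF (0.02), ARMC5 (0.11) and SPATA2L (0.15) did not pass with probe. The named small RNAs were lower with probe, except that MIR6087 (-0.38) and RNU1-27P (-0.72) did not pass. Without and with probe, RNU5E-1 was at -1.13 and -5.27 and SCARNA1 at -0.87 and -4.87, while RNVU1-7 was at 1.39 and -3.33. By GC content, the labelled captures had medians of 0.61 in the GC-poorest and -0.52 in the GC-richest group, where the no-probe captures had -0.16 and 0.23. The median size of a change over all genes was 0.18 without probe and 0.51 with probe in the fit of 24 libraries.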

How the data were processed

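HEK293T libraries were made from total RNA with a kit that the labels do not describe as stranded. The values are whole-number counts per gene that the authors deposited in 1 table of 57992 genes, with Ensembl 87 identifiers per the file headers. The submitters' processing notes name cutadapt 1.18, FastQC 0.11.8, HISAT2 2.1.0, SAMtools, HTSeq 0.7.2 and the build GRCh38; settings, strand and the handling of multiply mapped reads are not given in the sources used here. Names and transcript properties came from GENCODE release 29, and neighbours of rDNA loci from RefSeq.

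From the counts, edgeR 4.0.16 (R 4.3.3) was run with TMM scaling and its default filter on low counts on 16 libraries: combination plus a no-probe term (11 residual degrees of freedom, biological coefficient of variation 13.05%), and 8 groups for results within and between combinations (8 degrees of freedom). The threshold was an adjusted p of 0.05. CPM are TMM-scaled except sums over gene lists and class shares, which use all counts. Labelled captures were fitted with all 24 libraries. Class shares used exact permutations within combinations. The fits were checked on simulated counts. Genes were named by rule: the 10 highest and 10 lowest coding and 5 and 5 noncoding changes among genes past the threshold with 1 sign in 4 combinations and at least 10 CPM on average, the extremes within each combination, the 6 smallest p among combinations, the 2 largest and 2 smallest changes past the threshold in each list, and the most abundant genes, of which those described are given. Not every list, and not every gene that met the rule for lists, is described. In lists with 5 or fewer calls, further members were named after their values were seen. The members, lists and tests were chosen with earlier results of these data known, and the GC, olfactory receptor and RNU1-28P values were added after the data were seen.

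Precision is limited by 2 libraries a group and by depth, with 1129510 counts in the smallest library. The labels do not say whether replicate numbers pair no-probe captures with inputs, and the main fit had no replicate block. The correlation of the deviations of replicates with the same number was 0.083, -0.012, 0.257 and 0.038 in the 4 combinations. These values cannot decide whether the libraries were paired. Alternatives were other scalings, DESeq2 1.42.0, no filter, a replicate block, the 24-library fit, a fit with the GC trend of each library removed, and leaving out libraries or combinations. Some sequences are not reported here.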

Additional observations from a re-analysis of the deposited data

Results flagged for a closer look

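The background of 3 genes differed among the combinations by the test of the difference itself (edgeR's quasi-likelihood test, Benjamini-Hochberg adjustment over 13402 genes). MIR3648-2 (adjusted p = 0.00469) was at 2.41 on the log2 scale in G3BP2 arsenite and -1.71 in DDX6 arsenite libraries, and at -0.04 and 0.14 in TIA1 arsenite and DDX6 basal libraries. RNA5-8SN2 (ENSG00000277739, adjusted p = 0.00469) was at 0.61 in TIA1 arsenite and at -3.33, -2.21 and -3.88 in G3BP2 arsenite, DDX6 arsenite and DDX6 basal libraries. CUTA (adjusted p = 0.0459) was at 3.19 in G3BP2 arsenite, -2.35 in DDX6 basal, -0.64 in TIA1 arsenite and 0.73 in DDX6 arsenite libraries, from 2 to 36 counts in each of the 16 libraries. The first and second are parts of the rDNA repeat with near-identical copies.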

How the results depend on the processing

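Genes higher and lower without probe numbered 304 and 477 with no filter on low counts, 477 and 94 with total counts, 83 and 50 with the GC trend of each library removed (chosen after the data were seen), 256 and 238 without the TIA1 arsenite combination, 135 and 51 without G3BP2 arsenite, and 99 and 58 without DDX6 basal. Leaving out 1 library gave 336 to 768 higher and 229 to 821 lower, the most without DDX6 arsenite no-probe replicate 1 and the fewest without DDX6 basal no-probe replicate 1 (higher) and G3BP2 arsenite input replicate 1 (lower); a group left with 1 library was taken to vary like the others. Genes past the threshold in TIA1 arsenite, G3BP2 arsenite, DDX6 arsenite and DDX6 basal libraries were 29, 99, 22 and 48 with no filter, 3, 85, 9 and 15 with a replicate block, and 0, 42, 1 and 3 in DESeq2. Total counts gave 2 in TIA1 and 15 in G3BP2 libraries, the 24-library fit 2, 24 and 2 in TIA1, G3BP2 and DDX6 basal libraries, and GC removal 1 in G3BP2 and 4 in DDX6 arsenite libraries. Leaving out 1 library gave 0 to 14, 1 to 201, 0 to 167 and 1 to 49. The difference among combinations gave 39 genes with no filter, 6 with a replicate block, 1 with 24 libraries and 1 to 21 without 1 library, and the arsenite difference 10 with no filter and 0 to 1 without 1 library. With a replicate block the pooled counts were 779 and 572, but the labels do not say whether replicate numbers pair these libraries. The adjusted p of the mitochondrial rRNA share was 0.0679 without either DDX6 arsenite input (differences of -4.7 and -4.65 points, within -5.52 to -3.83 over all libraries left out), and that of the 5S share 0.0424 (0.971) and 0.017 (1.09) without no-probe replicate 1 of DDX6 basal and DDX6 arsenite cells, with differences of 0.571 to 1.09 over all libraries left out. The cause of these shifts was not tested.

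Signs turned for genes that passed the pooled test in neither fit. With GC removed, MIR3648-2 was at -0.247, FP671120.1 -0.049, FP236383.3 -0.009, RN7SL2 -0.029, TIA1 0.09, G3BP2 0.086 and DDX6 0.009. Without 1 combination the extremes were -0.434 for MIR3648-2, -0.724 for CUTA, -0.472 for FP671120.1, -0.069 for ENSG00000279010, -0.158 for FP236383.3, 0.199 for FP236383.2, 0.09 for FP671120.4, -0.027 for MT-CO1 and 0.061 for G3BP2. Without 1 library the ranges were -0.03 to 0.427 for MIR3648-2, -0.173 to 0.512 for CUTA, -0.167 to 0.172 for FP671120.1, -0.021 to 0.204 for FP236383.3, -0.214 to 0.11 for FP236383.2, -0.027 to 0.089 for MT-CO1 and -0.367 to 0.073 for RNA5-8SN2 (ENSG00000275215). FP671120.1 was at -0.017 in DESeq2, -0.001 with no filter and -0.013 with 24 libraries, MT-CO1 at -0.007 with no filter, and G3BP2 at 0.042 with total counts. Of the other values of named genes, 514 kept their side of the threshold, 40 fell below it and 13 rose past it.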
